A study of Mus musculus with 6 samples.

Results

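Chemokines are small secreted proteins that attract leukocytes along a gradient through G protein-coupled receptors on the responding cell. The transcripts described here are the 8 chemokine ligands Ccl5, Ccl3, Ccl4, Ccl1, Ccl9, Xcl1, Cxcl10 and Cxcl16, chosen by symbol from the 47643 genes of the count table. All 8 were in the table, and 7 had enough counts to be tested among the 12760 genes that did. Ccl9 did not. The libraries were made from invariant natural killer T (iNKT) cells of the NKT1 subset, the T cells with a nearly fixed receptor for lipids on CD1d that express T-bet. They came from BALB/c mice of wild-type genotype and were isolated by flow cytometry from thymus tissue. CD4-positive cells gave 3 libraries and CD4-negative cells gave 3, and the comparison asks how these coreceptor-defined cells differ. The sources used here give neither the age nor the number of animals per library, nor whether each replicate was a different set of animals. The p-values therefore cover only the spread among these libraries, and that spread may be partly technical.

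Effector T cells and NK cells are known for making CCL3, CCL4, CCL5 and XCL1. CCL5 is stored and released by memory and cytotoxic cells, and its receptors include CCR1 and CCR3. CCL3 also binds CCR1, and CCL4 is closely related to CCL3. XCL1, or lymphotactin, binds XCR1 on cross-presenting dendritic cells. CCL1 is the ligand of CCR8, CCL9 binds CCR1, CXCL10 is an interferon-induced ligand of CXCR3, and CXCL16 is a transmembrane chemokine that binds CXCR6.

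The chemokine classes are named for the cysteines near the start of the mature protein. The coding sequences around these cysteines are shown for 7 members because they set the classes apart: Ccl5, Ccl3, Ccl4, Ccl1 and Ccl9 carry adjacent cysteine codons (CC class), Cxcl10 and Cxcl16 have another codon between them (CXC), and Xcl1 has a single cysteine codon (C). Each stretch is 33 bases of the GENCODE M21 transcript (GRCm38), 5′ to 3′, with the cysteine codons of the motif in capitals.
Ccl5: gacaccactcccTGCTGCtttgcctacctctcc
Ccl4: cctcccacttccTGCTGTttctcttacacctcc
Ccl1: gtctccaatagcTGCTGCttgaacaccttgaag
Ccl9: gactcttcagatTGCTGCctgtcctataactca
Xcl1: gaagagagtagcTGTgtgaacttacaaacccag
Cxcl10: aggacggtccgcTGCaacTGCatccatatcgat
Cxcl16: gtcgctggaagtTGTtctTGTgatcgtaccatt

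Ccl3 and Ccl4 are the closest of the 3 pairs compared among Ccl5, Ccl3 and Ccl4, with 69.6% identical bases over 270 aligned coding bases and a longest identical run of 9 bases. Ccl5 shares 61.9% with Ccl3 and 59.7% with Ccl4. The estimated counts of Ccl5, Ccl3 and Ccl4 were whole numbers in all 6 libraries.

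Library totals were 40480468 to 53145898 estimated counts, which makes 1 count worth 0.0185 to 0.0261 CPM (counts scaled to a common library size with TMM factors). Where a gene had no counts, counting error alone still permits 3 counts, which is 0.0555 to 0.0783 CPM. Cd4, the sort marker, stood at 401 to 508 CPM in CD4-positive and 10.9 to 41.2 CPM in CD4-negative libraries. CD4-negative replicate 3 stood apart on the first principal component (score -90.2, against -2.31 to 32.2). Both replicate 1 libraries held Y-linked transcripts (466 and 523 counts, at most 1 elsewhere). Replicate 1 thus included RNA from male cells that replicates 2 and 3 lacked. Of the 12 T cell and NKT1 identity markers, all were tested and none passed the test between the groups, with 6 higher in CD4-positive cells and 6 lower. Among them, Zbtb16 and Cd44 had groups that did not overlap, as did 9.43% of all tested genes. Zbtb16 stood at 151, 98.1 and 70.2 CPM in CD4-positive and 60.0, 63.7 and 62.0 CPM in CD4-negative libraries (log2 0.78), and Cd44 was also higher in CD4-positive cells (log2 0.28). Log2 differences are CD4-positive minus CD4-negative.

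CD4-negative NKT1 cells carried more Ccl5, while the groups overlapped for the other abundant chemokine transcript, Xcl1. Ccl5 (chromosome 11, 83525778 to 83530518, minus strand, GRCm38) stood at 92.6, 92.7 and 98.9 CPM in CD4-positive replicates 1, 2 and 3 and at 494, 471 and 414 CPM in CD4-negative replicates 1, 2 and 3. The groups lay far apart, and the lowest CD4-negative library was the one that stood apart from the rest. The means were 94.7 ± 3.62 and 460 ± 41.4 CPM (SD, n = 3 each), a 4.85-fold higher level in CD4-negative cells. The log2 difference was -2.28 (SE 0.15, 95% interval -2.64 to -1.92) with an adjusted p of 0.00522 by edgeR's quasi-likelihood test with Benjamini-Hochberg adjustment.

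Ccl5 was the only tested member of 7 to pass, where 27 of 12760 genes, or 0.212%, passed in either direction, 0.141% passed as lower in CD4-positive cells and 0.0705% as higher. Log2 differences were below 0 for 4 of the 7 members (51.1% of all tested genes) and at least 2-fold for 3 of them, Ccl5, Ccl3 and Ccl4 (5.22%). An unadjusted p under 0.05 was reached by Ccl5 and Ccl4 (4.44%). In sorted bulk RNA, a larger share of cells with Ccl5 and more Ccl5 RNA per cell cannot be told apart. The Ccl5 call held without CD4-negative replicate 3 (adjusted p = 0.00421, 0.335% of genes called) and was lost when any of the other 5 libraries was left out (adjusted p = 0.0538 to 0.147), while the log2 difference stayed between -2.35 and -2.22 in those 6 fits. Replicate 3 of each group carries another style of library name: with this as a batch term the difference was -2.28 (adjusted p = 0.0131, 0.0862% of genes called), and replicates 1 and 2 alone gave -2.38 (adjusted p = 0.0394, 0.0699%). The other style holds 1 library per group and gives no test. Ccl5 also passed with RLE scaling (0.219% of genes called), upper-quartile scaling (0.227%), limma-voom (0.227%), no filter on low counts (0.345%) and a minimum mean of 5 CPM (0.316%). It missed the threshold, with 0 genes called, with replicates 2 and 3 alone (-2.21, adjusted p = 0.187) and with the replicate number as a block (-2.28, adjusted p = 0.0558).

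**Figure D1:**
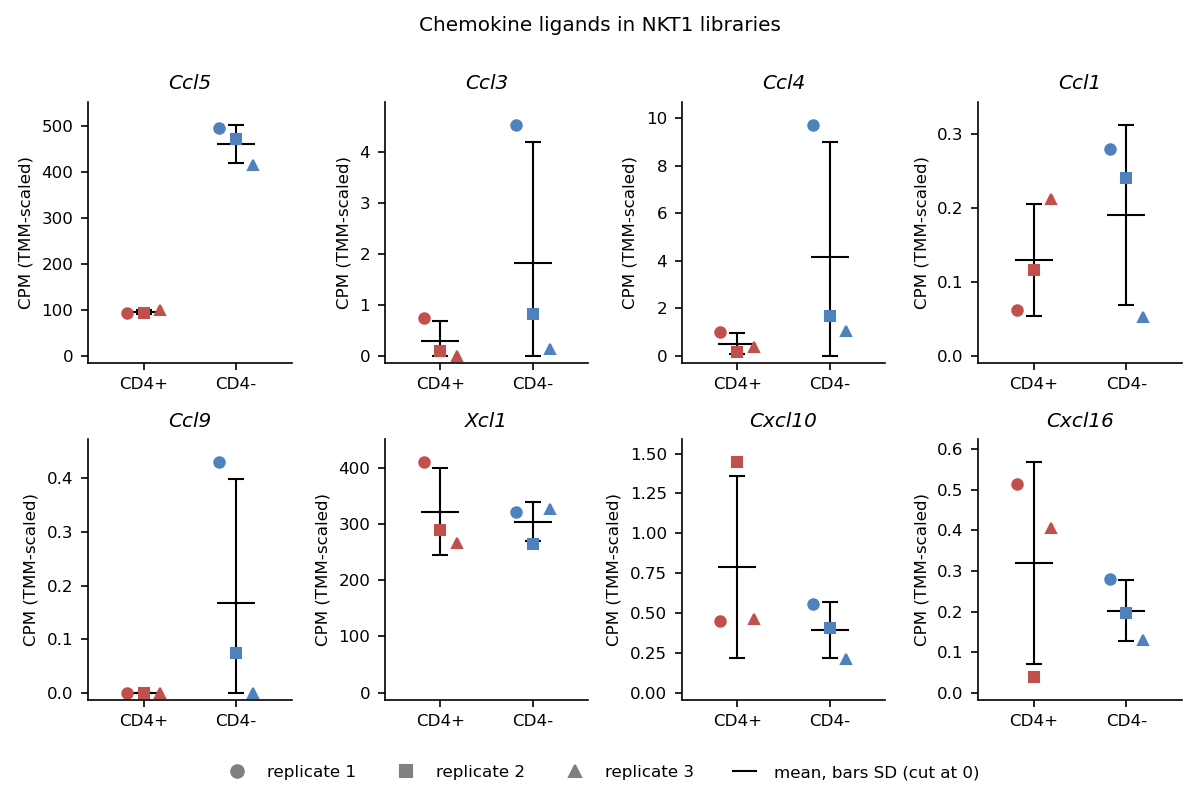
TMM-scaled CPM of the 8 chemokine ligands in the CD4-positive (CD4+, red) and CD4-negative (CD4-, blue) libraries, with a linear axis of its own for each gene. Symbols are single libraries by replicate, horizontal lines are means and bars are SD, cut at 0; the Ccl5 groups lie apart (92.6 to 98.9 against 414 to 494 CPM) and the Xcl1 groups overlap.

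Xcl1 (chromosome 1, 164931644 to 164935527, minus strand) stood at 410, 290 and 266 CPM in CD4-positive and at 321, 264 and 327 CPM in CD4-negative libraries. The groups overlapped, with the highest value in CD4-positive replicate 1 and the lowest in CD4-negative replicate 2. The log2 difference of 0.08 (SE 0.21) did not pass the test (adjusted p = 1.0 by edgeR), and its 95% interval reached from -0.40 to 0.57. Its sign turned when CD4-positive replicate 1 was left out (-0.13) or when CD4-negative replicate 2 was (-0.0053). The estimated counts of Xcl1 were fractional in 5 of the 6 libraries, and the transcript Gm20743 overlaps it on the other strand. How far either affects the level of Xcl1 was not tested.

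Levels of different genes were compared per kilobase of the longest protein-coding transcript, which is 532 bases for Ccl5 and 523 bases for Xcl1. In CD4-positive cells Xcl1 led with 615 ± 147 CPM per kb, followed by Ccl5 with 178 ± 6.80 CPM per kb. In CD4-negative cells Ccl5 led with 864 ± 77.8 CPM per kb, ahead of Xcl1 with 581 ± 66.2 CPM per kb. Neither group had an overlap between the values of these genes, so by this length the order of the 2 transcripts differed between the groups. With another length the order in CD4-negative cells was not the same, as given below.

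The ratio of Ccl5 to Xcl1 per kb was 0.222, 0.315 and 0.365 in CD4-positive libraries and 1.52, 1.76 and 1.25 in CD4-negative libraries. Ccl5 made up 22.9% ± 4.35 of the transcripts of all 36 chemokine ligand genes examined (per kb) in CD4-positive and 59.4% ± 4.08 in CD4-negative cells, and Xcl1 76.7% ± 4.37 and 39.9% ± 4.17. The shares are not independent, since they sum to 100 within a library and rest on the same counts. Which transcript led in CD4-negative cells depended on the length used. With all exons of a gene merged, which adds a retained-intron transcript and makes Ccl5 960 bases long, the ratio was 0.123 to 0.203 and 0.690 to 0.973, so Xcl1 led in every library, and the Ccl5 share was 14.2% ± 2.98 and 44.9% ± 4.17.

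**Figure D2:**
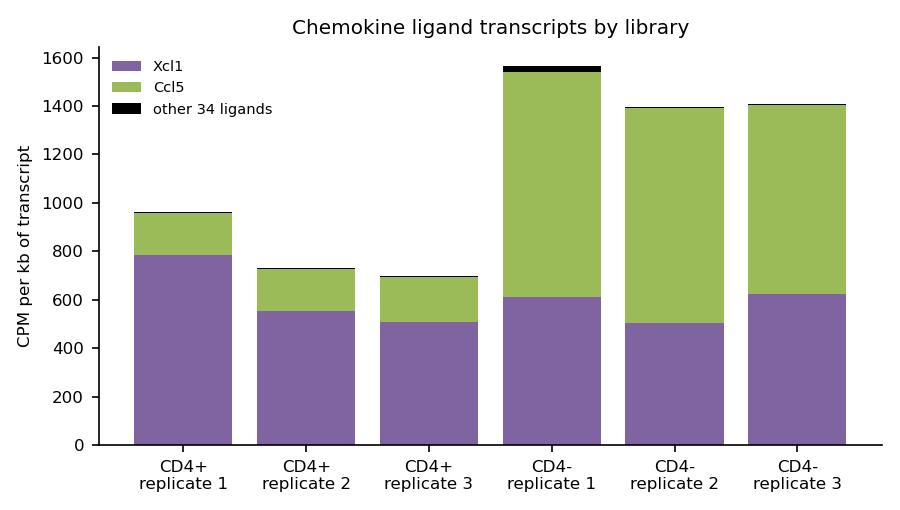
Stacked bars of Xcl1, Ccl5 and the other 34 chemokine ligands in each library, in CPM per kb of the longest protein-coding transcript. The totals were 698 to 962 in CD4-positive and 1396 to 1565 in CD4-negative libraries, and the other 34 ligands made up 0.339% to 1.47% of them.

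By rank of the mean level per kb among 12725 tested genes with a transcript length, Ccl5 stood at place 358 in CD4-positive and 107 in CD4-negative cells, and Xcl1 at 133 and 148. The other 5 tested members lay at place 6609 or lower in both groups. Their order per kb in CD4-positive cells was Ccl4 (0.772 ± 0.673 CPM per kb), Cxcl10 (0.582 ± 0.422), Ccl3 (0.364 ± 0.526), Ccl1 (0.212 ± 0.125), Cxcl16 (0.118 ± 0.0923) and Ccl9 (0 in each library). In CD4-negative cells it was Ccl4 (6.28 ± 7.34), Ccl3 (2.39 ± 3.10), Ccl1 (0.312 ± 0.199), Cxcl10 (0.290 ± 0.130), Cxcl16 (0.0750 ± 0.0277) and Ccl9 (0.0559 ± 0.0765). The values of neighbours in these orders overlapped between libraries, except those of Cxcl16 and Ccl9 in CD4-positive cells, where Ccl9 was at 0, and those of Cxcl10 and Cxcl16 in CD4-negative cells.

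Ccl4 (chromosome 11, 83662584 to 83664683, plus strand) had 49, 8 and 19 counts in CD4-positive and 452, 90 and 40 counts in CD4-negative libraries, or 1.01, 0.154 and 0.366 against 9.73, 1.67 and 1.04 CPM. The groups did not overlap, though CD4-positive replicate 1 nearly reached CD4-negative replicate 3. The log2 difference of -3.02 (SE 1.02, 95% interval -5.41 to -0.64) did not pass by edgeR (adjusted p = 0.774) and passed by DESeq2 (adjusted p = 0.0205), which called 0.846% of its tested genes. Without CD4-negative replicate 1 the difference was -1.41. Among the 7 tested members 2, Ccl5 and Ccl4, had groups that did not overlap, against 9.43% of all tested genes, and 4.58% had groups that did not overlap with CD4-positive cells lower.

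Ccl3 (chromosome 11, 83647844 to 83649355, minus strand) had 36, 5 and 0 counts in CD4-positive and 211, 44 and 5 counts in CD4-negative libraries, or 0.740, 0.0964 and 0 against 4.54, 0.814 and 0.131 CPM. CD4-negative replicate 3 lay below CD4-positive replicate 1, so the groups overlapped. The log2 difference was -2.71 (SE 1.54, 95% interval -6.32 to 0.89, adjusted p = 1.0 by edgeR), and it was -0.77 without CD4-negative replicate 1.

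**Figure D3:**
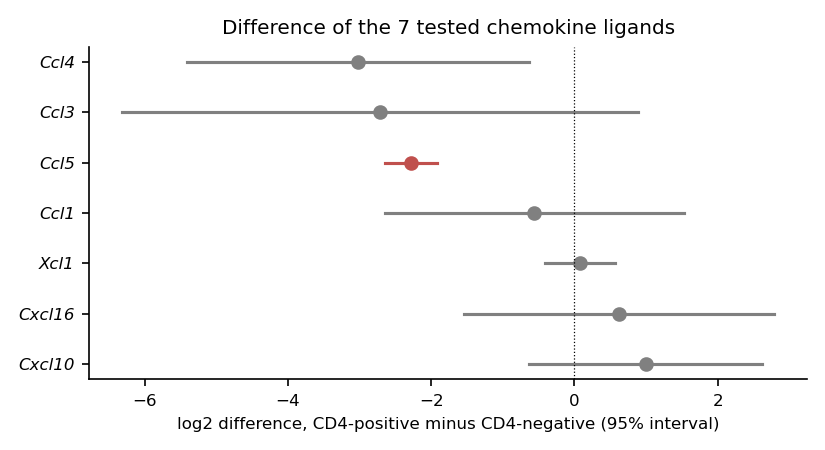
Log2 difference (CD4-positive minus CD4-negative, points) and its 95% interval (lines) for the 7 tested chemokine ligands, with the 1 that passed the test in red. Ccl5 has a short interval (-2.64 to -1.92), while Ccl3 and Ccl4 lie lower with intervals several times as wide.

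Ccl3 and Ccl4 were highest in replicate 1 of both groups. So were genes that T cells switch on within hours of stimulation: 15 of the 22 listed activation-induced genes had their highest value of each group in replicate 1, as did 3 of the 7 tested members (Ccl3, Ccl4 and Cxcl16) and 7.04% of all tested genes. Fos, an AP-1 transcription factor subunit, stood at 127, 17.2 and 18.2 CPM in CD4-positive and 419, 22.9 and 10.1 CPM in CD4-negative libraries. Tnfaip3, the NF-kappaB inhibitor A20, stood at 386, 83.7 and 63.8 CPM and at 630, 76.9 and 39.7 CPM. The interferon gamma gene Ifng had 188, 39.7 and 40.7 CPM and 295, 73.4 and 101 CPM. Fos, Junb, Tnfaip3 and Ifng were singled out after their values were seen.

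The summed level of the 22 genes was 2710, 970 and 885 CPM in CD4-positive and 4230, 998 and 727 CPM in CD4-negative libraries. None of the 22 passed the test between the groups. The members with the smallest p were Egr2, a receptor-induced transcription factor (log2 0.91, adjusted p = 0.0706), the cytokine Il4 (1.87, adjusted p = 0.201) and the adhesion receptor Crtam (-1.62, adjusted p = 0.463). What part the replicate 1 libraries' activation-induced transcripts have in the values of Ccl3 and Ccl4 was not tested. Ccl5 did not follow this pattern among CD4-positive libraries, where replicate 3 was highest but the values lay close together (92.6, 92.7 and 98.9 CPM). Among CD4-negative libraries replicate 1 was highest for Ccl5 too (494, 471 and 414 CPM).

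**Figure D4:**
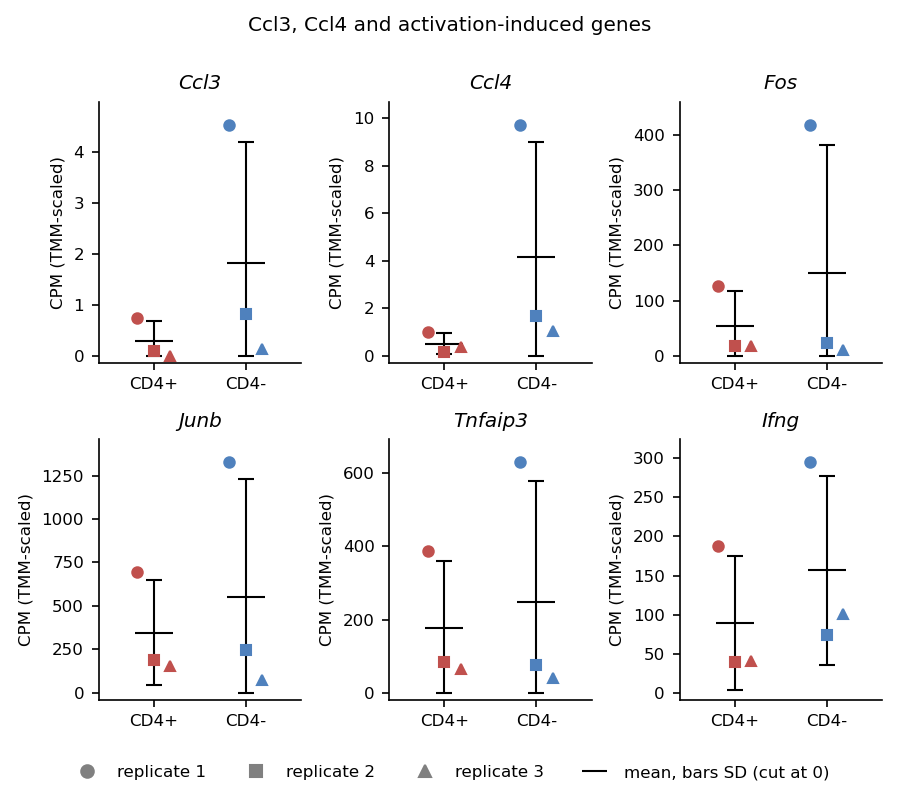
TMM-scaled CPM of Ccl3, Ccl4 and 4 activation-induced genes in the CD4-positive (CD4+, red) and CD4-negative (CD4-, blue) libraries, on linear axes, with means (lines) and SD (bars, cut at 0). In all 6 panels replicate 1 (circles) is the highest library of each group.

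The promoters of 5 of the 8 members were found in the RefSeq table for GRCm38.p6 (Xcl1, Cxcl10, Ccl1, Ccl9 and Ccl3, but not Ccl5, Ccl4 and Cxcl16). That of Xcl1 is shown because it precedes the abundant transcript that did not pass the test, and that of Ccl3 because its transcript varied among replicates with the activation-induced genes. Each is the 250 bases before the start, 5′ to 3′, at chr1:164935523-164935772 and chr11:83649379-83649628, both on the minus strand. Capitals mark matches, on either strand, to 6 motifs searched: the T-box site AGGTGTGA, the RUNX site TGTGGT, the AP-1 site TGANTCA, the NFAT core GGAAAA, the TATA box TATAAA and the NF-kappaB site.
Xcl1: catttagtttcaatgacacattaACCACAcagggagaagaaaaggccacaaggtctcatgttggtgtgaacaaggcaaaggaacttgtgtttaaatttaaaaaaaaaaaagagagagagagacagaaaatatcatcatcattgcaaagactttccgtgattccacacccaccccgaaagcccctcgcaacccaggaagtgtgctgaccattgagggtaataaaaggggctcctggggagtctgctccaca
Ccl3: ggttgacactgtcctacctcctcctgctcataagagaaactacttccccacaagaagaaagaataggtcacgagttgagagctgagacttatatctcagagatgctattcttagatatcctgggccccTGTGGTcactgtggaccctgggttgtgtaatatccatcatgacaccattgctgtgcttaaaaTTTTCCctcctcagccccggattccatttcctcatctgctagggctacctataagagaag

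The Xcl1 window matched the RUNX site alone, 227 to 222 bases before the start, and the Ccl3 window matched the RUNX site and the NFAT core. No matches overlapped in these windows. Among 32851 promoter windows of the same length, 14.0% held the RUNX site and 20.4% the NFAT core. A match describes letters only.

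The remaining members were near the limit of detection. Ccl9 had no counts in the 3 CD4-positive libraries and 20, 4 and 0 counts in CD4-negative replicates 1, 2 and 3, so it was seen in 2 libraries and mostly in replicate 1. Ccl1 had 3, 6 and 11 counts in CD4-positive and 13, 13 and 2 counts in CD4-negative libraries (log2 difference -0.56, SE 0.90). Both genes had overlapping groups.

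Cxcl10 had 22, 75 and 24 counts in CD4-positive and 26, 22 and 8 counts in CD4-negative libraries, with the highest value in CD4-positive replicate 2 (1.45 CPM). Its log2 difference of 1.0 (SE 0.69) was 0.22 without that library. Cxcl16 had 25, 2 and 21 counts in CD4-positive and 13, 10.6 and 5 counts in CD4-negative libraries (log2 difference 0.63, SE 0.93). None of these 3 tested genes passed, with intervals of -2.65 to 1.53 for Ccl1, -0.63 to 2.62 for Cxcl10 and -1.54 to 2.79 for Cxcl16. On the other strand, Art3 overlaps Cxcl10 and Zmynd15 overlaps Cxcl16; the sources used here do not give the strand setting of the counting, so their reads may not be told apart.

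Of 28 other chemokine ligand genes 3 were tested and none passed: Ccl25, a thymic epithelial ligand (log2 -0.54), Ccl28 (0.75) and Ccl22 (0.05). Another 19 had at most 3 counts in each library, and 15 of those had none.

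Ccl5 lies in a cluster of chemokine genes on chromosome 11. Within 500 kb of its start 18 genes were tested, Ccl5, Ccl3 and Ccl4 among them, and Ccl5 was the only 1 of the 18 that passed. Heatr9, which encodes a HEAT-repeat protein and lies just past the end of Ccl5 on the same strand (83511736 to 83522175), stood at 0.802, 0.636 and 0.598 CPM in CD4-positive and 5.19, 4.02 and 2.64 CPM in CD4-negative libraries. The groups did not overlap. Its log2 difference of -2.54 (SE 0.36) was of the size of that of Ccl5 and missed the threshold (adjusted p = 0.0545 by edgeR); it passed without CD4-negative replicate 3 (adjusted p = 0.0269) and by DESeq2 (adjusted p = 4.53e-07). Taf15, a transcription factor gene on the far side of Heatr9, differed by -0.22 (SE 0.17).

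**Figure D5:**
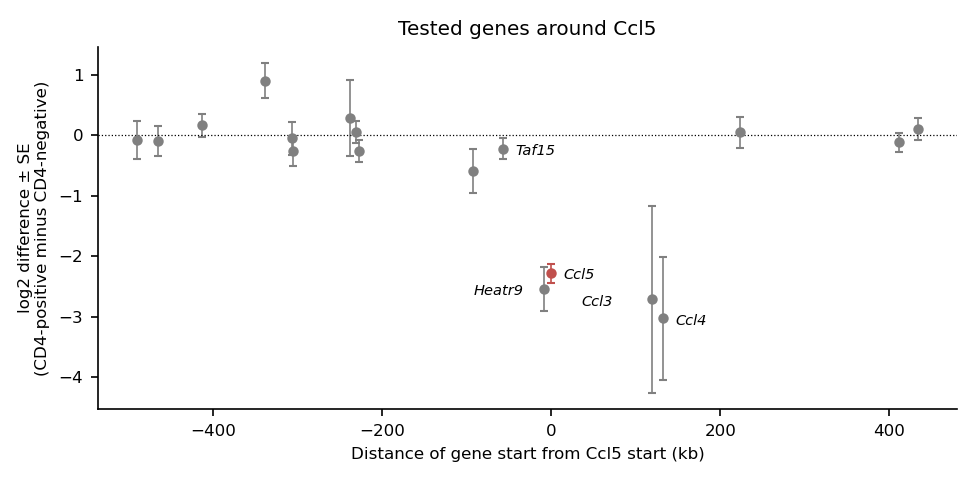
Log2 difference (CD4-positive minus CD4-negative) with its SE for the 18 tested genes within 500 kb of the Ccl5 start, against the distance of each gene's start from that of Ccl5 in kb on the chromosome's plus strand. Ccl5 (red) passed the test; Heatr9, Ccl3 and Ccl4 lie at -2.54, -2.71 and -3.02, and the other genes lie between -0.59 and 0.91.

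The genes whose profile over the 6 libraries was most like that of Ccl5 were Pltp, Elovl7, Emilin2, Plek and S1pr5, out of 8728 tested genes with a mean of at least 5 CPM, leaving out the members, predicted genes, pseudogenes and receptor segments. Likeness was the root mean square difference between centred log2 CPM profiles, which was 0.19, 0.21, 0.22, 0.24 and 0.29 for these genes, against a median of 1.16. Pltp, a phospholipid transfer protein, stood at 3.79 ± 0.311 against 15.7 ± 1.13 CPM. S1pr5, a sphingosine 1-phosphate receptor of NK cells, stood at 2.26 ± 0.292 against 9.64 ± 1.90 CPM. All 5 genes passed the test between the groups as lower in CD4-positive cells, with log2 differences of -2.66 to -1.96, and they were chosen from the same libraries, so this is a description of the profile.

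None of the 8 receptor genes listed for these ligands passed the test, and 5 were tested. Cxcr6, the receptor of CXCL16 and a marker of NKT1 cells, had the highest level per kb in both groups (325 ± 37.3 in CD4-positive and 467 ± 80.9 CPM per kb in CD4-negative cells) and groups that did not overlap (log2 -0.52, SE 0.19, adjusted p = 0.884). Xcr1, the receptor of XCL1, stood at 7.24, 5.38 and 4.65 against 12.2, 8.36 and 16.5 CPM, also without overlap (log2 -1.10, SE 0.30, adjusted p = 0.472). Cxcr3 stood at 187 ± 81.3 and 141 ± 47.8 CPM per kb and Ccr8 at 41.2 ± 12.9 and 33.8 ± 6.14 CPM per kb, with log2 differences of 0.41 and 0.28 that became -0.16 and -0.13 with replicates 1 and 2 alone. Ccr1, Ccr3 and the scavenger receptor Ackr2 were at most 0.135 CPM in each library.

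Of 20 regulators known to act on Ccl5 and effector chemokines none passed, with 10 above 0 and 10 below and a median log2 difference of -0.03, against -0.0058 over all tested genes. Those with the smallest p were Eomes, a T-box factor of NK and memory T cells (log2 -1.61, adjusted p = 0.0964), and Runx1 (0.72, adjusted p = 0.692). Tbx21, which encodes T-bet, differed by -0.14, and Klf13, a zinc-finger activator of Ccl5 in T cells, by -0.06; both were singled out after their values were seen. Of 8 genes of chemokine processing and storage none passed; Dpp4, the protease that trims CCL5 and CXCL10, came nearest (11.9 ± 0.898 against 5.92 ± 1.62 CPM, adjusted p = 0.353).

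Markers of NK cells, which also make CCL5, stood at different summed levels in the groups. The summed level of the 12 listed NK cell markers was 298 to 386 CPM in CD4-positive and 1096 to 2320 CPM in CD4-negative libraries, with Gzma (granzyme A) at 109 to 201 and 735 to 1935 CPM. Of 10 tested NK cell markers 9 had a log2 difference below 0 and none passed, with Ncr1, Gzma and Eomes of smallest p (adjusted p = 0.0545, 0.0545 and 0.0964). An unadjusted p under 0.05 was reached by 6 of the 10. Ncr1, Gzma and Eomes passed by DESeq2, with no filter on low counts (adjusted p = 0.0132, 0.0118 and 0.0285) and without CD4-negative replicate 3 (adjusted p = 0.0463, 0.0308 and 0.0301), and Ncr1 and Gzma also passed by limma-voom (adjusted p = 0.0473 and 0.0426). Klra8 and Klra4 had at most 1 count in any library, and Klrb1b, Klra9, Itga2 and Klri2 had overlapping groups. Whether the BALB/c genome carries Klra8 and Klra4 was not examined, so their counts give no measure of NK cells. The CD4-negative library with the most Gzma, replicate 3, had the least Ccl5 of its group. Prf1, Klre1, Klrg1, Klrb1b and Klra9 were also highest in that library of the group. Ncr1, Eomes, Itga2 and Klri2 were lowest there, as was Ccl5. Ncr1 stood at 85.0, 92.8 and 74.7 CPM and Eomes at 47.2, 35.4 and 24.3 CPM in CD4-negative replicates 1, 2 and 3. The part of NK cell transcripts in the Ccl5 difference was not tested.

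For myeloid and dendritic cells, known sources of Ccl9 and Cxcl10, most of the markers were low. Of 15 myeloid markers 4 had at most 3 counts in each library, S100a8 and S100a9 had none, and Lyz2 lay between 0.235 and 0.904 CPM; the sum, mostly Ctss, was 80.9 to 84.0 CPM in CD4-positive and 88.9 to 99.6 CPM in CD4-negative libraries. The 12 dendritic cell markers summed to 8.89 to 12.9 and 11.8 to 24.8 CPM, with Xcr1 at 4.65 to 7.24 and 8.36 to 16.5 CPM the largest part in each library. Of the 8 tested, 6 lay below 0 and 2 above. Itgax had 3, 4 and 0 counts in CD4-positive and 20, 25 and 37 counts in CD4-negative libraries, without overlap (log2 -3.67, adjusted p = 0.455 by edgeR). Batf3 had no counts. B cell markers summed to 4.49 to 5.72 and 8.09 to 9.88 CPM with Pax5 at 0, and gamma-delta T cell markers to 675 to 709 and 671 to 738 CPM. Immature thymocyte markers reached 38.5 to 159 and 58.9 to 234 CPM, stromal markers 33.6 to 37.3 and 19.3 to 21.5 CPM (mostly Pecam1, which lymphocytes also express, at 30.6 to 33.8 and 15.2 to 16.7 CPM), and regulatory T cell markers 354 to 483 and 174 to 233 CPM. In the last list Izumo1r and Ikzf2 passed as higher in CD4-positive cells, and in the other marker lists no gene passed. Izumo1r and Tnfrsf18 made up most of the regulatory T cell sum. Of the 8 tested genes of that list 5 lay above 0 and 3 below, Foxp3 (log2 -0.38) among the latter. Foxp3 stood at 0.222 to 0.652 CPM in CD4-positive and 0.134 to 1.21 CPM in CD4-negative libraries. What part other cells have in the low counts of Ccl9 and Cxcl10 was not tested.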

How the data were processed

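The authors deposited 1 table of estimated counts per gene, not normalised; the submitters' processing notes list STAR, Picard, RSEM and the build mm10, with neither versions nor roles. Libraries were stranded mRNA preparations sequenced in paired ends, per the labels' protocols. All 6 columns were matched to samples by library name. Values were rounded and fitted in R 4.3.3 with edgeR 4.0.16: filterByExpr, TMM, glmQLFit (robust) and glmQLFTest with group as the sole term, two-sided, Benjamini-Hochberg adjustment over 12760 genes at 0.05. The SE was derived from the F statistic. CPM in the text was taken from unrounded counts. Replicates of a group differed by more than sampling noise (chi-square per degree of freedom 55.6 to 400.5), so all 6 were kept. Coordinates and lengths come from GENCODE M21 (GRCm38). Alternatives were other scalings, filters, limma-voom (limma 3.58.1), DESeq2 1.42.0, a block, a batch term and left-out libraries; replicates 2 and 3 alone and the transcript length were chosen after seeing the data.

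The scripts were tested on simulated data first. Members and lists were chosen with earlier results of these data known. Named genes were all members, all receptors, members of each list that passed or up to 3 of smallest p, the 5 genes most like Ccl5, and tested neighbours within 500 kb. Some genes and 1 sequence that these rules select are not reported here.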

Additional observations from a re-analysis of the deposited data

How the results depend on the processing

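The Ccl5 difference stayed below 0 under all 16 alternatives and passed under 9 of them. It missed the threshold with the replicate block (-2.28, adjusted p = 0.0558), with replicates 2 and 3 alone (-2.21, adjusted p = 0.187) and, by edgeR, without any of 5 single libraries (range over the 6 libraries left out in turn -2.35 to -2.22). The count of 27 genes was 164 by DESeq2, 67 with no filter on low counts, 11 with the naming batch term, 9 with replicates 1 and 2 alone, 0 with the replicate block, 0 with replicates 2 and 3 alone and 0 to 44 with single libraries left out. The fits with 0 calls, all by edgeR, had 402 to 585 genes at an unadjusted p under 0.05. The count of chemokine ligands that passed was 2 by DESeq2, 0 with the replicate block, 0 with replicates 2 and 3 alone and 0 to 1 with single libraries left out. The cause was not tested. Whether replicate numbers mark a shared source is not known: the deviations of same-numbered libraries correlated at -0.08, 0.34 and 0.04, so not every pair was positive, while both replicate 1 libraries held Y-linked counts. With the replicate block the SE fell from 1.54 to 0.64 for Ccl3 and from 1.02 to 0.50 for Ccl4, and neither passed (adjusted p = 0.475 and 0.323). Signs turned for Xcl1 (-0.086 with replicates 2 and 3 alone, -0.13 to 0.21 with single libraries left out), Ccl1 (0.13 with replicates 2 and 3 alone), Ccr8 and Cxcr3 (-0.13 and -0.16 with replicates 1 and 2 alone), none of which passed. With all exons merged the Ccl5 share moved from 22.9% to 14.2% in CD4-positive and from 59.4% to 44.9% in CD4-negative cells. Ccl3, Ccl4, Ccl1, Cxcl16 and Cxcl10 had under 100 counts in nearly every library, which limits their precision. Under the filter of a mean of at least 5 CPM only Ccl5 and Xcl1 of the members were tested.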
